A study of Mus musculus with 6 samples.

Results

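Genes of DNA replication and mitosis were followed in bone marrow cells from mice with chronic myeloid leukemia (CML) or acute myeloid leukemia (AML). A list of 40 genes, fixed by name, held 19 genes of S phase and 21 genes of the G2 and M phases. Of these, 38 had a probe set paired with 1 gene symbol, out of 22180 such genes on the arrays: 18 of S phase and 20 of G2 and M. Ccne2 and Ccnb1 had no such probe set and were not analysed here. The list names genes by their known role and sets no threshold on measured values.

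The study hybridised 1 microarray per sample, 3 from CML and 3 from AML, with RNA of primary sorted cells. All 6 samples carried Col2.3 GFP, a reporter in which a fragment of the collagen I promoter drives green fluorescent protein in cells of the osteoblast lineage. The cell type label is osteoblastic and the titles call the cells stromal. CML also stands in the source name of the samples titled AML, so the groups, and with them each direction, rest on the titles. How either leukemia was induced, the age of the mice and whether the samples came from separate mice are not given in the sources used here. A p-value below therefore reflects only how far these arrays spread, and part of that spread can be technical.

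Before S phase, CDC6 and CDT1 load the ring-shaped MCM2-7 helicase onto replication origins, and CDC45, the GINS complex and MCM10 turn it into a moving fork. E2F transcription factors switch on most of these genes late in G1, when kinases bound to G1 cyclins free these factors from the retinoblastoma proteins. Genes of G2 and M rise later under the B-MYB and FOXM1 factors, and their products drive entry into mitosis, attach chromosomes to the spindle and divide the cell. In marrow most cells in cycle are blood progenitors, whereas osteoblasts that make bone matrix divide rarely.

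The promoters of the members were searched for short motifs tied to these modes of control. RefSeq promoter windows (assembly GRCm38.p6, 250 bases before to 50 bases after the gene start) covered 32 of the 40 members, 1 of them with 2 windows. Both strands were searched for the E2F consensus (TTTCCCGC, TTTCGCGC, TTTGCCGC or TTTGGCGC), the CCAAT box, and the cell cycle genes homology region (TTCGAA or TTTGAA), an element of G2 and M promoters. The E2F consensus was in 6 of 16 S-phase promoters and 1 of 17 G2 and M promoters, against 2.26% of all 32851 promoters. The homology region was in 3 of 16 and 13 of 17, against 19.2%. The CCAAT box was in 11 of 16 and 15 of 17, against 37.4%. All 13 G2 and M promoters and all 3 S-phase promoters with a homology region also held a CCAAT box. That pair was found in 7.52% of all promoters. A match is a run of letters and not a binding site.

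The 150 bases before the start are shown for the members of each phase that had the lowest p-values among those with a promoter window. Each is printed on the gene's strand, with matches in capitals.
Mcm6 (chr1:128359706-128359855, minus strand): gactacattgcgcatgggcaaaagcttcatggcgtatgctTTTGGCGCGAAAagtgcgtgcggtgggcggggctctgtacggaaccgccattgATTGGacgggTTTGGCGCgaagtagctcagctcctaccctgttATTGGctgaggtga
Cdt1 (chr8:122567865-122568014, plus strand): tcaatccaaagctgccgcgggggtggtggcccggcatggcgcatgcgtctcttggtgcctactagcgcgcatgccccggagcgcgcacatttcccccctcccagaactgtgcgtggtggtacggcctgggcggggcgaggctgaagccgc
Cdk1 (chr10:69352913-69353062, minus strand): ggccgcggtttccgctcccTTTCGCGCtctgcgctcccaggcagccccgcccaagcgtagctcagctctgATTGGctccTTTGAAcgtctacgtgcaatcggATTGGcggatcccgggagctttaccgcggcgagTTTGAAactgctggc
Bub1 (chr2:127831860-127832009, minus strand): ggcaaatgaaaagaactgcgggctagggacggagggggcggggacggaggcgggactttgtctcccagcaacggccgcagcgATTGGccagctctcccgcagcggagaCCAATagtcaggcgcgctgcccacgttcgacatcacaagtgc
The Mcm6 stretch held 3 matches to the E2F consensus, of which a pair on opposite strands overlapped, and 2 CCAAT boxes. Cdt1 had its E2F match at bases 33 to 40 of the transcript and none in the stretch shown. Cdk1 held TTTGAA at bases -71 to -66 and again at -15 to -10, a CCAAT box upstream of each, and 1 E2F match. Bub1 had 2 CCAAT boxes before the start and TTCGAA at bases 15 to 20 of the transcript. None of these matches overlapped a match to another motif.

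No member differed between the leukemias past the threshold. Of 38 members, 0 passed a limma adjusted p of 0.05, against 1.91% of all genes (1.83% higher and 0.0812% lower in AML). Of the members, 1 (Cdk1) had an unadjusted p under 0.05, against 21.5% of all genes. By value 29 members were higher and 9 lower in AML, with log2 changes from -0.56 for Mki67 to 0.66 for Mcm6. Of all 22180 genes 8493 were higher in AML, and of the 11090 with the higher mean levels 6630 were. The groups did not overlap for 3 members (Gins2, Mcm6 and E2f1), or 7.89%, against 31.3% of all genes. Limma's 95% intervals lay within a 2-fold change each way for 19 members. The highest upper bound was 1.43 for Cdt1 and the lowest lower bound -1.50 for Ccne1, so larger changes of any single member lay outside its interval. The median absolute change was 0.32 for the members, 0.29 for all genes and 0.42 for the 11090 genes with the higher mean levels. The median standard errors were 0.27, 0.20 and 0.25. All 38 members lay among those 11090 genes, of which 3.68% passed and 33.8% had groups that did not overlap.

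The direction by value depended on how the arrays were scaled. The members' median change was 0.25 where the median of all genes was -0.11, and 0.40 against 0.04 after median centring of each array. It was 0.058 against -0.029 after quantile normalization and -0.022 against -0.0071 after cyclic loess, a curve-based scaling. Among the 11090 genes with the higher mean levels, where all 38 members lay, the median was 0.17 as deposited, 0.31 after median centring, 0.064 after quantile normalization and 0.039 after cyclic loess. The members' median was thus above that of the brighter genes as deposited and after median centring, and below it after quantile normalization and cyclic loess. All members had mean log2 intensities from 5.36 to 10.31, above the array medians of 4.11 to 4.35.

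**Figure D1:**
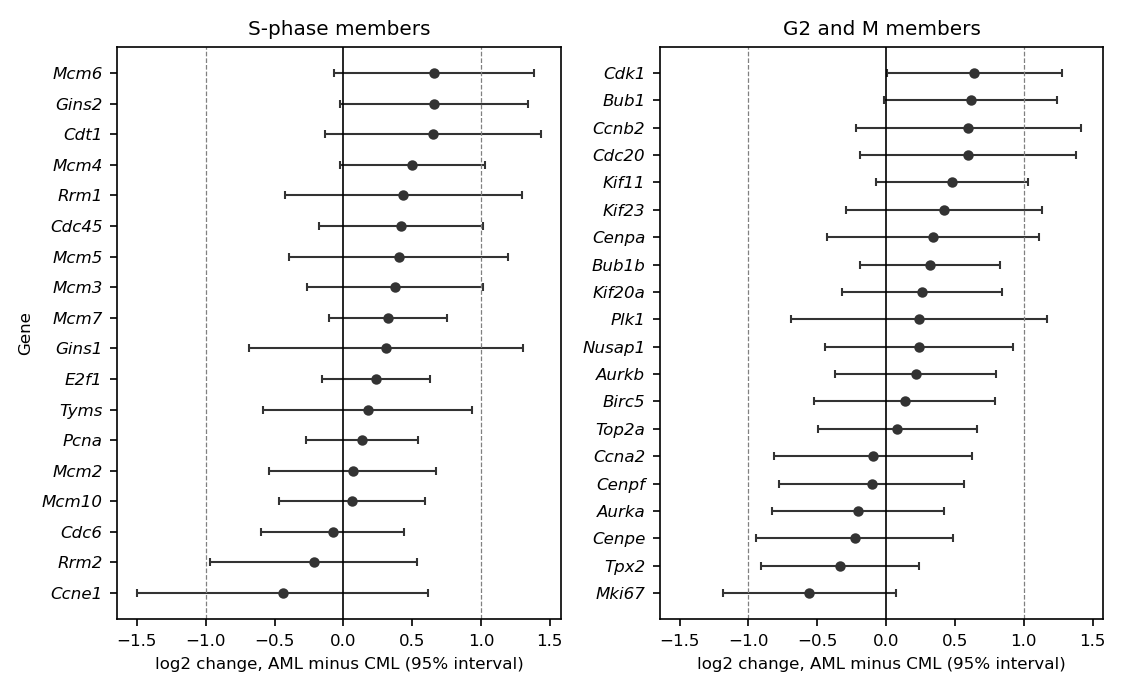
Log2 change between AML and CML (horizontal axis, AML minus CML) of each member (vertical axis), with S-phase genes on the left and G2 and M genes on the right. Points are limma estimates, bars their 95% intervals and dashed lines a 2-fold change; every interval but that of Cdk1 includes 0.

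Among the S-phase genes, all 6 subunits of the MCM2-7 helicase were higher in AML by value, and none passed. Mcm6 (probe set 17226550) had log2 intensities of 8.24, 8.34 and 7.27 in CML and 8.45, 8.56 and 8.82 in AML, here and below in the order of arrays 1, 2 and 3. The groups did not overlap, and CML 3 stood 0.97 below the next lowest array. The change was 0.66 ± 0.30 (SE; limma adjusted p = 0.26). Mcm4 (probe set 17328432) read 7.86, 8.08 and 7.38 in CML and 8.31, 8.07 and 8.46 in AML, with CML 3 again lowest and CML 2 just above AML 2. Its change was 0.50 ± 0.22 (SE; limma adjusted p = 0.244). Mcm2 (probe set 17468798), another subunit of the ring, read 7.17, 7.74 and 7.48 in CML and 7.18, 7.43 and 7.98 in AML. These values overlapped throughout, at a change of 0.068 ± 0.25 (SE; limma adjusted p = 0.878). Mcm3, Mcm5 and Mcm7 stood at 0.38, 0.40 and 0.32. After cyclic loess Mcm2 and Mcm7 were at -0.28 and -0.029, and after quantile normalization Mcm2 was at -0.17.

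The genes that load and start the helicase were spread more widely. Gins2 (probe set 17513525), a subunit of the GINS complex, read 7.49, 7.33 and 6.48 in CML and 7.78, 7.55 and 7.94 in AML. All AML arrays were above all CML arrays, by 0.06 at the nearest pair. The change was 0.66 ± 0.29 (SE; limma adjusted p = 0.242). Cdt1 (probe set 17506418), the loading factor that geminin restrains, read 6.52, 7.13 and 5.91 in CML and 6.97, 7.03 and 7.51 in AML, and CML 2 lay inside the AML range. The change was 0.65 ± 0.33 (SE; limma adjusted p = 0.29). Cdc45 and Gins1, partners of the active helicase, stood at 0.42 and 0.31. Mcm10, which helps the helicase to fire, and Cdc6, the other loading factor, differed little, at 0.062 and -0.078.

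Genes of the sliding clamp and of nucleotide supply fell on both sides of 0, from -0.22 for Rrm2 to 0.43 for Rrm1. Pcna (probe set 17391971), the clamp that holds polymerases on DNA, read 10.27, 10.48 and 9.99 in CML and 10.30, 10.34 and 10.51 in AML. The groups overlapped, with an interval from -0.27 to 0.54 around a change of 0.13 ± 0.17 (SE; limma adjusted p = 0.632). Rrm1 and Rrm2 encode the subunits of ribonucleotide reductase, which makes deoxyribonucleotides, and stood at 0.43 and -0.22. A second probe set of Rrm2 gave -0.24. Tyms, which makes thymidylate, stood at 0.18.

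The genes of the switch from G1 into S had opposite signs. E2f1 (probe set 17393160), the activator that drives many of the genes above, read 5.33, 5.30 and 5.09 in CML and 5.38, 5.72 and 5.34 in AML. The groups were apart by only 0.01 between CML 1 and AML 3, at a change of 0.24 ± 0.16 (SE; limma adjusted p = 0.392). Ccne1, the cyclin E1 that activates CDK2, had the widest interval of the list, from -1.50 to 0.61 around -0.44. The CML arrays spanned 6.65 to 7.92 and the AML arrays 6.15 to 7.47, so the groups overlapped.

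**Figure D2:**
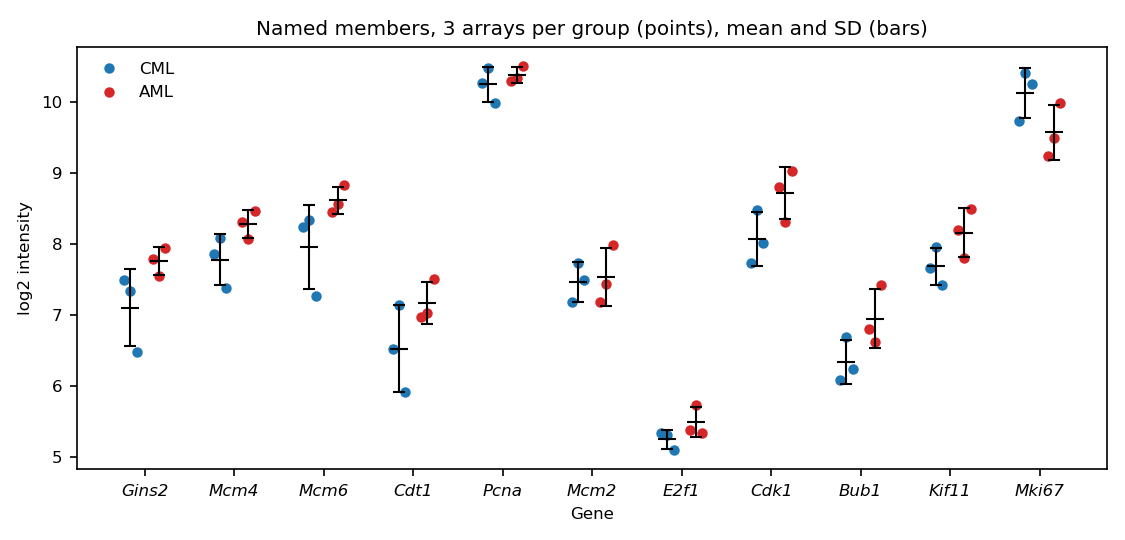
Log2 intensity (vertical axis) of 11 members (horizontal axis) on the 3 CML arrays (blue) and 3 AML arrays (red), in the order of replicate 1 to 3 within each colour. Points are arrays and bars the mean with its SD; the colours overlap for all but Gins2, Mcm6 and E2f1.

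Among the G2 and M genes, Cdk1 had the lowest p-value of all members. Cdk1 (probe set 17241692), the kinase that starts mitosis, read 7.73, 8.48 and 8.01 in CML and 8.80, 8.31 and 9.03 in AML. CML 2 lay above AML 2, and the other AML arrays lay above every CML array. The change was 0.64 ± 0.27 (SE; limma adjusted p = 0.231), with an interval from 0.003 to 1.27. Of its cyclin partners, Ccnb2, cyclin B2, stood at 0.60, near Cdk1 itself, and Ccna2, the cyclin A2 of S phase and G2, at -0.093.

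Mki67 was the member with the lowest value in AML relative to CML. It encodes Ki-67, the protein that coats mitotic chromosomes and is used to count cells in cycle. Its probe set (17497334) read 9.74, 10.41 and 10.25 in CML and 9.24, 9.49 and 9.99 in AML, so AML 3 lay above CML 1 and the groups overlapped. The change was -0.56 ± 0.26 (SE; limma adjusted p = 0.267), and it stayed between -0.87 and -0.41 under the 3 other scalings. The signs of Mki67 and Cdk1 were opposite under all 3 scalings too, and whether their changes differ was not tested. Top2a, the topoisomerase that untangles sister chromosomes, stood at 0.082.

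Checkpoint genes were all higher in AML by value. Bub1 (probe set 17391376), a kinase of the spindle checkpoint, read 6.09, 6.68 and 6.23 in CML and 6.80, 6.62 and 7.42 in AML, with CML 2 just above AML 2. The change was 0.61 ± 0.26 (SE; limma adjusted p = 0.238). Bub1b, which encodes the checkpoint protein BUBR1, stood at 0.32. Cdc20, the activator of the anaphase-promoting complex that the checkpoint blocks, stood at 0.59.

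Spindle genes fell on both sides of 0. Kif11 (probe set 17359020), the motor that pushes spindle poles apart, read 7.66, 7.96 and 7.42 in CML and 8.19, 7.79 and 8.49 in AML. AML 2 lay inside the CML range, and the change was 0.48 ± 0.23 (SE; limma adjusted p = 0.274). Kif23 and Kif20a, motors of cytokinesis, stood at 0.42 and 0.26, and Nusap1, which bundles spindle microtubules, at 0.24. Tpx2, which activates Aurora A on the spindle, stood at -0.33, and Aurka, which encodes that kinase, at -0.21. Aurkb and Birc5, both of the chromosomal passenger complex, stood at 0.22 and 0.13, and Plk1, a kinase of mitotic entry and exit, at 0.24. Among centromere genes, Cenpa, the histone variant that marks centromeres, stood at 0.34, Cenpe, a kinetochore motor, at -0.23 and Cenpf at -0.11. None of these passed, with limma adjusted p from 0.274 for Kif11 to 0.825 for Cenpf.

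The members varied together between arrays of the same leukemia. Within AML, AML 3 was the highest array for 37 of 38 members, against 34.9% of all genes and 40.8% of the 11090 genes with higher mean levels. E2f1, highest on AML 2, was the exception. Within CML, CML 2 was the highest array for 32 of 38 members, against 33.1% of all genes and 41.5% of the brighter ones. The exceptions were Gins2, Mcm10, E2f1, Bub1b and Aurkb, highest on CML 1, and Cdc45, highest on CML 3. The AML 3 count was 36, 37 and 32 after quantile normalization, median centring and cyclic loess. The CML 2 count was 19, 33 and 20, so it rested on the scaling. These counts were made after the values were seen. Over all genes, the deviations of CML 2 and AML 3 from their group means correlated at 0.47, the highest of any CML and AML pair.

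The size of these gaps was similar in both phases. As deposited, AML 3 exceeded the mean of AML 1 and AML 2 by a median of 0.52 in S-phase genes and 0.64 in G2 and M genes. The median was -0.017 over all genes and 0.026 over the brighter ones. CML 2 exceeded the mean of CML 1 and CML 3 by a median of 0.43 and 0.57, against -0.037 over all genes and 0.072 over the brighter ones. These gaps were not taken under the other scalings. Of the 6 arrays, AML 3 gave the highest value for 31 members and CML 2 for 6. The lowest value fell on CML 3 for 15 members and on CML 1 for 13.

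**Figure D3:**
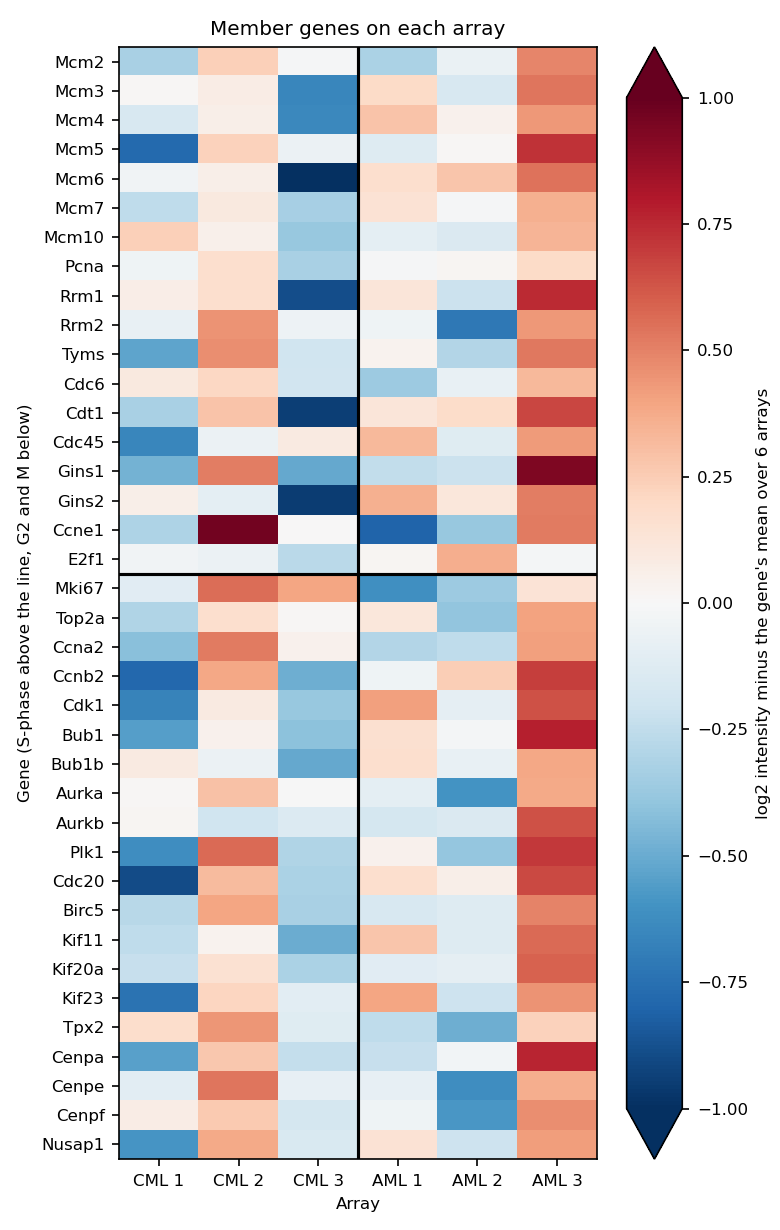
Log2 intensity of the 38 members (rows; S-phase genes above the black line, G2 and M genes below) on each array (columns) after subtracting the gene's mean over the 6 arrays, in red where higher and blue where lower. The AML 3 column is red for 37 genes, and CML 2 is the highest CML array for 32.

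S-phase and G2 and M genes were then set against each other on each array. Levels of different probe sets cannot be compared, so each gene was centred on its mean over the 6 arrays and the genes of a phase were averaged. The S-phase average stood at -0.20, 0.21 and -0.41 in CML and at -0.014, -0.078 and 0.48 in AML. The G2 and M average stood at -0.34, 0.27 and -0.21 in CML and -0.012, -0.22 and 0.51 in AML. As deposited, both phases were thus above their mean on CML 2 and AML 3 and below it on the other arrays. The phases differed less from each other than the arrays did. The 11090 brighter genes, centred in the same way, averaged -0.13, -0.023 and -0.16 in CML and 0.085, 0.082 and 0.14 in AML. The S-phase average minus the G2 and M average was 0.14, -0.055 and -0.20 on the CML arrays and -0.0025, 0.15 and -0.027 on the AML arrays. Its mean was -0.039 ± 0.17 in CML and 0.039 ± 0.094 in AML (SD, n = 3 each), a difference of 0.078 that is smaller than either SD.

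As deposited, the CML array that was most often lowest differed between the phases. CML 3 was the lowest CML array for 12 of 18 S-phase genes and 7 of 20 G2 and M genes, and CML 1 for 6 and 12. Rrm1, for example, was lower on CML 3 than on CML 1 by 0.95, whereas Mcm5 read 6.65 on CML 1 and 7.37 on CML 3. Among the AML arrays, AML 2 was the lowest for 9 S-phase genes and 13 G2 and M genes. These counts of lowest arrays were not set beside all genes or repeated under the other scalings.

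Markers of other cell types moved between the same arrays. Erythroid genes were highest on CML 2 within CML and on AML 3 within AML for all 11 of 11 measured (of 18 listed). Both arrays were the highest for 17.3% of all genes and 25.7% of the brighter ones. The erythroid average, centred as above, stood at -0.15, 1.67 and 0.94 in CML and -2.82, -0.74 and 1.10 in AML. Slc4a1, the anion exchanger of red cells, chosen after its values were seen, read 9.83, 11.16 and 10.75 in CML and 4.89, 8.68 and 10.26 in AML. AML 1 had the lowest erythroid average of all arrays, while its S-phase and G2 and M averages were near 0. The part of erythroid cells in the array differences was not tested. In bulk RNA of this kind, fewer cells of a type and less RNA per cell cannot be told apart.

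The other marker lists followed other arrays. Ranges here are of list averages, centred as above. Pan-haematopoietic genes, 16 of 16 measured, lay between -1.45 and 0.12 in CML and between 0.34 and 0.99 in AML, and peaked on CML 1 within CML and on AML 1 or AML 2 within AML. Granule and myeloid progenitor genes, 10 of 10, lay between -1.60 and -1.11 in CML and between 0.76 and 1.87 in AML. Stem and progenitor genes, 10 of 10, ranged from -1.19 to -0.49 and from 0.61 to 1.06. Monocyte and macrophage genes, 10 of 10, ranged from -1.02 to -0.43 and from -0.014 to 1.03. B lineage genes, 10 of 12, ranged from -0.98 to 2.86 and from -1.20 to -0.13. Osteoblast genes, 10 of 14, ranged from -0.64 to 2.11 and from -1.19 to 0.18 and were highest on CML 3 for all 10. The averages of T and NK genes (7 of 8) and endothelial genes (9 of 9) stayed within -0.27 to 0.27 on every array. Single T and NK genes changed by -0.87 to 1.68, with 1 higher and 6 lower in AML. Single endothelial genes changed by -0.47 to 0.22, with 1 higher and 8 lower. The part of these lists in the members' values was not tested.

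Single defining markers were measured beside these lists. Ptprc, the leukocyte marker CD45, read 8.27, 4.96 and 6.16 in CML and between 8.17 and 9.30 in AML. Col1a1, the main collagen of bone, read 10.22, 8.71 and 11.95 in CML and 8.63, 9.87 and 7.27 in AML. Elane, the neutrophil elastase, rose by 3.85 ± 0.35 and Kit, the stem cell factor receptor, by 1.80 ± 0.21 (SE; limma adjusted p = 0.0151 and 0.0232). Both calls were lost without CML 3, AML 1 or AML 2, as were those of the other genes. Cd79a, a B cell receptor chain, was at 8.84 on CML 1 and 6.26 on CML 3, and between 3.37 and 4.12 on the other 4 arrays. Markers of blood cells and of osteoblasts were thus both measured in the samples labelled osteoblastic.

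**Figure D4:**
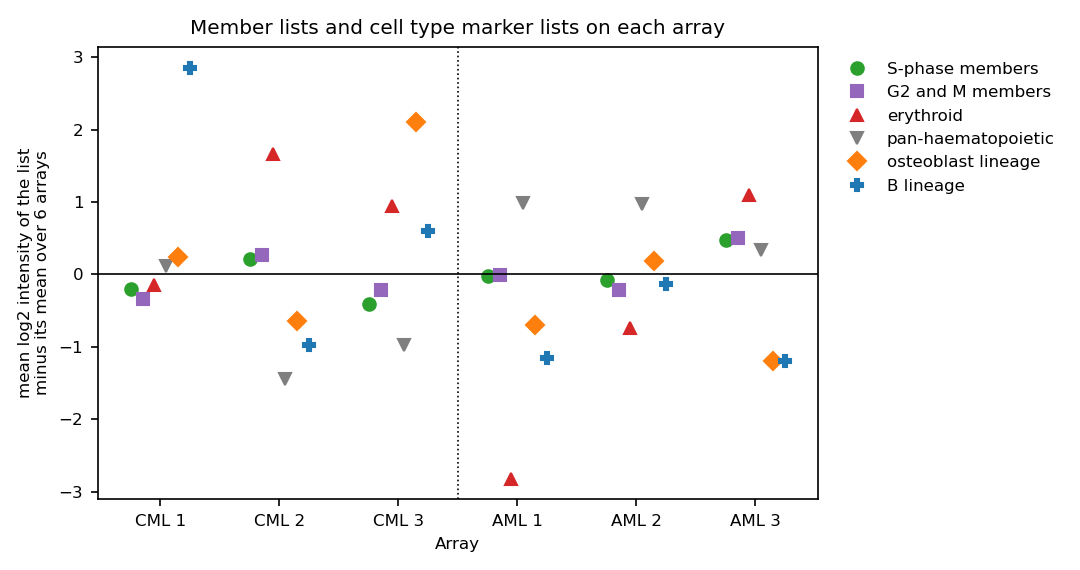
Mean log2 intensity of each list on each array (horizontal axis) after centring every gene on its mean over the 6 arrays (vertical axis), for both member lists and 4 lists of cell type markers. The member lists lie between -0.41 and 0.51, and the erythroid list between -2.82 on AML 1 and 1.67 on CML 2.

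Other genes of the cell cycle, in 9 lists holding 188 measured genes of 200, gave 2 calls, both higher in AML, or 1.06%, against 1.91% of all genes. Cdk6, a G1 kinase partner of D cyclins, read 6.97, 7.79 and 6.12 in CML and 9.78, 9.45 and 9.23 in AML, so the groups lay far apart. It rose by 2.53 ± 0.41 (SE; limma adjusted p = 0.0433). Mcmbp, which binds the MCM proteins, read 6.87, 6.79 and 6.56 in CML and 7.89, 8.14 and 7.80 in AML. It rose by 1.20 ± 0.16 (SE; limma adjusted p = 0.0298). Each call passed in 7 of 16 alternatives, and each failed without CML 3, AML 1, AML 2 or AML 3, and Cdk6 also without CML 1. The limma adjusted p in the fits that failed for want of 1 array ran from 0.05 to 0.134 for Mcmbp and from 0.0657 to 0.176 for Cdk6.

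Replication genes outside the member list were mostly higher in AML by value. Of 43 origin and fork genes, 1 (Mcmbp) passed and 34 were higher, at a median of 0.31 that became 0.082 after cyclic loess. Of all 22180 genes 8493 were higher, and of the 11090 brighter ones 6630 were. Pole2, a subunit of the leading-strand polymerase, stood at 1.36 ± 0.25, and Dna2, a nuclease of Okazaki fragments, at 0.93 ± 0.18 (SE; limma adjusted p = 0.0526 and 0.0607). Both were chosen after their values were seen. Of 8 genes of nucleotide supply 0 passed in limma, and Shmt1, which supplies one-carbon units for thymidylate, had the lowest p at 0.73 ± 0.23 (SE; limma adjusted p = 0.157). Of 23 genes of G1 and S control, 1 (Cdk6) passed, with 15 higher and 8 lower.

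As deposited, mitotic genes outside the member list were near balance in sign. Their medians were 0.004 for 21 regulators of G2 and M, 0.049 for 23 kinetochore genes and 0.051 for 27 genes of spindle motors and cytokinesis. These medians were 0.15, 0.20 and 0.20 after median centring, and -0.17, -0.087 and -0.11 after quantile normalization. After cyclic loess they were -0.16, -0.12 and -0.16. By value 12 regulators, 12 kinetochore genes and 15 spindle genes were higher. Of all 22180 genes 8493 were higher, and of the 11090 brighter ones 6630 were. Of the 71 mitotic genes 0 passed in limma and 4 had an unadjusted p under 0.05, against 1.91% and 21.5% of all genes. Those 4 were Bub3, a checkpoint protein, at 1.04, Cks2, a small CDK-binding subunit, at 1.14, Kif15, a spindle motor, at 0.52, and Kifc1, a motor that works in the opposite direction, at -0.66. Cks2 and Kifc1 were named after their values were seen. The kinetochore gene with the lowest p was Ndc80, which binds microtubules, at 0.53 (limma adjusted p = 0.246). AML 3 was the highest AML array for all 23 kinetochore genes, 19 of 21 regulators and 23 of 27 spindle genes. As deposited, it was the highest for 34.9% of all genes and 40.8% of the brighter ones.

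As deposited, genes that restrain the cycle were near balance in sign. Their median was 0.065, and it was 0.21 after median centring, -0.16 after quantile normalization and -0.28 after cyclic loess. Of 13 inhibitors 0 passed in limma and 3 had an unadjusted p under 0.05, against 1.91% and 21.5% of all genes. By value 7 inhibitors were higher and 6 lower. Wee1, the kinase that holds CDK1 inactive, had the lowest p at 1.44 ± 0.27 (SE; limma adjusted p = 0.0558). AML 1 was the highest AML array for 7 of the 13 and AML 3 for 6, whereas CML 2 was the highest CML array for 10. Of all 22180 genes, AML 1 was the highest AML array for 6351, AML 3 for 7750, and CML 2 the highest CML array for 7335.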

How the data were processed

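RNA of primary sorted cells was amplified, labelled with an Affymetrix terminal kit, per the labels' protocols, and hybridised to 1 array for each sample. The authors' deposited values are intensity on a linear scale, as judged from the values (2.71 to 8583). Limma and lumi are the tools in the submitters' processing notes. Background correction and normalization are not given in the sources used here. Arrays have no read depth, and their number limits the precision.

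Of 39721 probe sets, 23521 had 1 gene symbol in the platform annotation, 1814 several and 14386 none, and the last 2 kinds were left out. Each gene was represented by its probe set of highest mean. Log2 intensity (floor 1, which no value reached) of 22180 genes was compared, AML minus CML, by lmFit and eBayes of limma 3.58.1 (R 4.3.3), two-sided, with Benjamini-Hochberg adjustment over all genes and a threshold of 0.05. SE and 95% intervals are limma's moderated ones. The members, lists and tests were chosen with earlier results of these data known, so lists are described without tests.

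Values on every array are given for the 4 members of each phase with the lowest p and for Pcna, Mcm2, E2f1, Cdk1 and Mki67. Outside the list, named genes were those past the threshold or the lowest p of a list, and fixed markers, except Pole2, Dna2, Cks2, Kifc1 and Slc4a1, chosen after their values were seen. Replicate numbers of the titles were not taken to pair the arrays: correlations of deviations were 0.24, -0.30 and -0.25 for numbers 1, 2 and 3. For arrays of unlike number they ran from -0.28 (CML 2 with AML 1) to 0.47 (CML 2 with AML 3). With 3 arrays per group these correlations cannot exclude handling shared by number. The AML and CML fit was tested on simulated data for all 22180 genes, where 30% of 50 genes planted at a log2 change of 1 and 90% at 2 were called. Plots came from matplotlib 3.10.9 (Python 3.11.15).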

Additional observations from a re-analysis of the deposited data

How the results depend on the processing

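Of 16 alternatives, all left 0 of 38 members past the threshold in limma in each direction, with the lowest adjusted p at 0.11, without CML 2. Counts at an unadjusted p under 0.05 ran from 0 to 9, also highest without CML 2. The sign of 19 members, 16 of them higher in AML, was the same in every fit. Cyclic loess changed the sign of 12 members, quantile normalization of 7 and median centring of 3. The G2 and M median was -0.12 after cyclic loess, against 0.24. Leaving out each array in turn gave S-phase medians from 0.14 to 0.47, G2 and M medians from -0.01 (without AML 3) to 0.39, and a difference between the phases from -0.0035 (without CML 3) to 0.17, against 0.32, 0.24 and 0.078 as fitted. The count of members highest on CML 2 went from 32 to 19 after quantile normalization and 20 after cyclic loess, settings added for this count after the data were seen. The cause was not tested. With a replicate block, where the members' lowest adjusted p was 0.285, the medians were 0.32 and 0.24, and 0 of all 22180 genes passed in limma, against 423 without it. Correlations between arrays of the same number did not settle whether the numbers pair the arrays. What the loss of calls with the block means was therefore not settled. All genes past the threshold numbered 93, 896 and 64 after quantile normalization, median centring and cyclic loess, 13 with a floor of 16, and 0 without CML 3, AML 1 or AML 2.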

Other observations

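Genes of DNA damage signalling and of chromosome structure gave no call. Among all genes, 1.91% passed in limma and 21.5% had an unadjusted p under 0.05. Of 14 measured checkpoint and repair genes 0 passed in limma and 3 had an unadjusted p under 0.05. Atr, the kinase that senses stalled forks, had the lowest p and read 4.80, 5.03 and 4.78 in CML and 5.42, 5.70 and 6.21 in AML, with no overlap. Its change was 0.91 ± 0.23 (SE; limma adjusted p = 0.1). Of 16 genes of condensin, cohesin and their partners 0 passed in limma and 2 had an unadjusted p under 0.05. By value 14 of them were higher, at a median of 0.19 that became -0.15 after cyclic loess. Of the 11090 brighter genes 6630 were higher by value. Stag2, a cohesin subunit, had the lowest p at 0.61 ± 0.19 (SE; limma adjusted p = 0.146), and lay between 6.67 and 7.28 in CML and between 7.53 and 7.67 in AML. AML 3 was the highest AML array for 12 of the 14 checkpoint and repair genes and 11 of the 16 chromosome genes. As deposited, that was so for 34.9% of all genes and 40.8% of the brighter ones.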
